A study of Mus musculus with 48 samples.

Results

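Amino acid breakdown in the kidney was followed here through 38 genes of 10 pathways, listed as enzymes that oxidise, transaminate or otherwise consume amino acids. Each gene was represented by the probe set that carries its symbol alone and has the highest mean over the 48 arrays. Of the 38 genes, 37 had such a probe set among the 18193 genes that could be named this way, and Acmsd, an enzyme of tryptophan breakdown, was not analysed here. All 37 passed the filter on low values that left 13174 genes for testing. Hal passed it only through FVB kidneys after nephrectomy. Its calls there, and in the strain differences and FVB day changes that use those kidneys, describe how it came to be measured at all.

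The arrays hold RNA of whole kidneys from 48 mice of the strains FVB and C57BL/6 (written B6), operated on at 9 weeks of age. Mice had either a subtotal nephrectomy (Nx), which removes most of the kidney mass and leaves a remnant, or a sham operation, and were studied at day 2, 28 or 53 afterwards. Strain, surgery and day make 12 groups of 4 mice, with 1 array per mouse, and no transgene or other treatment is named in the labels. FVB mice are described by the submitters as predisposed to kidney lesions and B6 mice as not predisposed, and the comparisons ask how Nx differs from sham in each strain at each day and where the strains differ. All levels and differences below are on the log2 scale of the deposited values, and values of single animals run from the lowest to the highest of a group. A gene is said to have fallen or risen where its limma p-value, adjusted over the 13174 genes, was below 0.05.

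Amino acids are broken down by removal of nitrogen, usually to glutamate, and by oxidation of the carbon skeleton in mitochondria and peroxisomes. The kidney shares much of this work with the liver: its proximal tubule cells reclaim filtered amino acids, make creatine precursor and arginine from them, and release ammonium to carry acid into urine. Many of the enzymes are therefore abundant in the proximal tubule, and markers of that cell type are given beside the results.

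Whole-kidney RNA mixes cell types, so that fewer cells of a type and less RNA per cell cannot be told apart. All 20 proximal tubule markers were measured on these arrays, with a mean between 12.67 and 12.86 in every sham animal. Pancreatic enzyme transcripts had a mean above 5 in 16 of the 24 Nx kidneys and in 3 of the 24 sham kidneys. Liver transcripts stood out on 1 array, FVB sham day 28 mouse 4, where Alb read 13.05 and Apoa1 8.62. Apoa1 lay at or under the filter value of 2.277 on 41 of 48 arrays and apart from that array reached 4.38 at most. Alb lay above the filter value on other arrays too. In FVB it was 2.73 to 7.40 in Nx and 6.63 to 8.80 in sham kidneys at day 2. At day 53 it was 2.53 to 4.47 and 6.81 to 9.55. In B6 it was 5.15 to 6.53 and 7.24 to 7.90 at day 2, and 8.74 to 9.53 and 7.74 to 9.86 at day 53. At day 28 the Alb ranges of Nx and sham kidneys overlapped in both strains. Hpd and Bhmt are both strongly expressed in liver, and the part of liver RNA in their values was not tested. Leaving out FVB sham day 28 mouse 4 or any other single array gave 8 to 9 falls in FVB at day 28. The Gapdh 3 prime minus 5 prime difference averaged 0.246 after Nx and 0.153 after sham surgery, and its part in the results was not tested.

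FVB kidneys expressed these genes at lower levels after Nx at day 2 and again at day 53, and much less so at day 28. At day 2, 35 of the 37 genes fell and 1, Hal, rose, with a median of -1.12, while 30.0% of all genes tested fell and 24.8% rose. By day 28 only 9 had fallen and 1 had risen, Glud1 (median -0.13), against 8.81% and 7.35% of all genes. At day 53, 36 fell and Hal rose (median -1.18), against 27.8% and 25.9% of all genes. The medians of all genes lay at -0.032, -0.023 and -0.006 on the 3 days.

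B6 kidneys shared the fall at day 2 and had mostly lost it by day 53. At day 2, 28 genes fell, Glud1 rose and 8 did not pass (median -0.75), while 24.4% of all genes fell and 20.2% rose. At day 28, 11 fell and Glud1 rose (median -0.26), against 9.14% and 9.85% of all genes. The count of 11 became 7 when B6 Nx day 28 mouse 3 was left out. At day 53, 6 fell (Hao2, Aadat, Ddc, Got1, Bckdhb and Mccc2), 3 rose (Bhmt2, Aass and Glud1) and 28 did not pass (median -0.03), against 6.68% and 8.03% of all genes. Those 6 falls became 3 when B6 sham day 53 mouse 3 was left out.

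**Figure D1:**
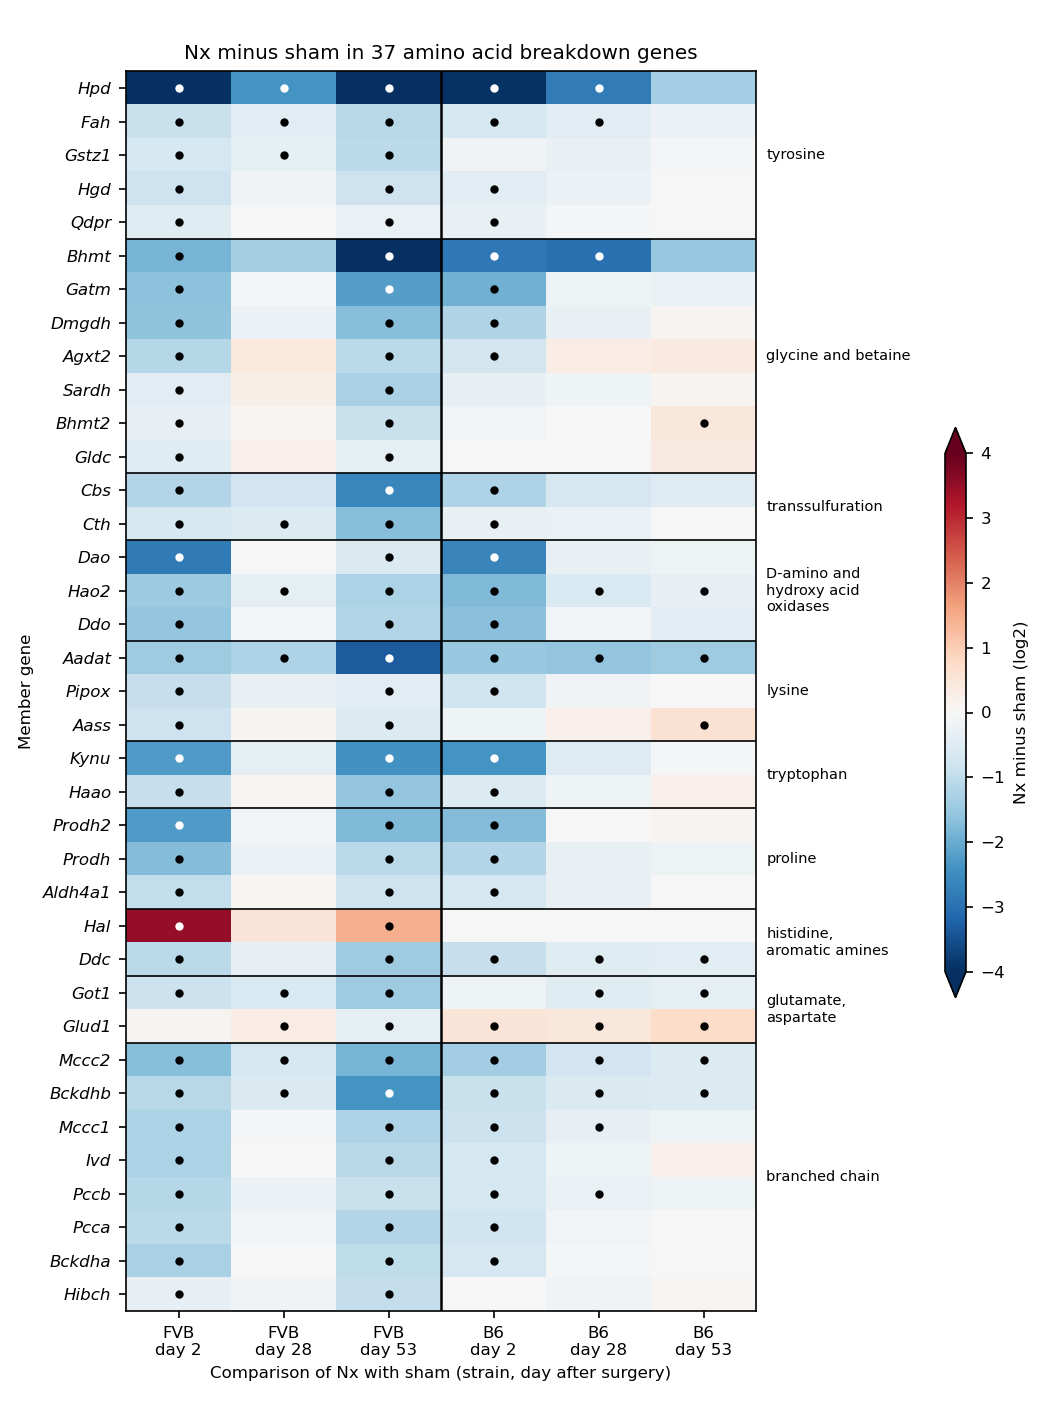
Nx minus sham on the log2 scale for each of the 37 measured genes, by pathway, in the 6 comparisons of strain and day (colour, with values beyond 4 in either direction drawn at the end of the scale). A dot marks an adjusted p below 0.05, and the columns for FVB at day 2 and day 53 are blue with dots in nearly every gene, while B6 at day 53 has 9 dots.

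In FVB, 26 genes were lower at day 2 and day 53 but not at day 28, a course that 15.3% of all genes followed. The 9 that were lower on all 3 days were Hpd, Gstz1, Fah, Cth, Hao2, Aadat, Got1, Bckdhb and Mccc2 (6.24% of all genes). Together these 35 were lower at both day 2 and day 53 (21.6% of all genes), and no gene of the 37 was lower at day 2 only (7.52%). In B6 the commonest course was a fall at day 2 only, in 18 genes (15.8% of all genes), and Hao2, Aadat, Ddc, Bckdhb and Mccc2 were lower on all 3 days (3.55% of all genes). Hpd, Fah, Bhmt, Mccc1 and Pccb were lower at day 2 and 28 but not at day 53 (3.58%). The 5 genes lower at both day 2 and day 53 (5.03%) were those lower on all 3 days, and none was lower at day 2 and 53 but not at day 28 (1.48%). Hao2, Aadat, Bckdhb and Mccc2 were thus lower in all 6 comparisons with all arrays in the fit. For Hao2 in B6 at day 53 the call was lost without Nx mouse 1 or sham mouse 3, 5 or 6 (adjusted p = 0.0507 to 0.0898). Without the arrays that carry pancreas transcripts, which leaves 1 FVB Nx array at day 28, Hao2 (-0.31, adjusted p = 0.106) and Bckdhb (-0.16, adjusted p = 0.776) did not pass there. For Aadat in B6 at day 28 the call was lost with only the arrays of that comparison (adjusted p = 0.0597).

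The stretches of genome before the start sites of 4 genes are shown because these genes carry the widest range of responses: Hpd and Bhmt with the deepest falls, Aadat with a fall on every day in both strains, and Hal with the only rise at day 2 in FVB. Each is the 250 bases before the start in RefSeq on GRCm38.p6, 5′ to 3′ along the gene's strand, with motif matches in capitals.
Hpd (chr5:123182724-123182973, minus strand): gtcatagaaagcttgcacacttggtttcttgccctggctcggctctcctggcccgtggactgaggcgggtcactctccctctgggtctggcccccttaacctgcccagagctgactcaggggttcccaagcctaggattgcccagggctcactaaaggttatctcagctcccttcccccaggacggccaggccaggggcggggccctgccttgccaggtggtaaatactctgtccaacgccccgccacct
Bhmt (chr13:93637759-93638008, minus strand): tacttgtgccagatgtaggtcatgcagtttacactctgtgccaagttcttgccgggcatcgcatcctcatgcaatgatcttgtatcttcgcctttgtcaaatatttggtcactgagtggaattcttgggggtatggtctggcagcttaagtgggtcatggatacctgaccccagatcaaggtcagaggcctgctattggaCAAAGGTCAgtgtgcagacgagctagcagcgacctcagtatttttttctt
Aadat (chr8:60505874-60506123, plus strand): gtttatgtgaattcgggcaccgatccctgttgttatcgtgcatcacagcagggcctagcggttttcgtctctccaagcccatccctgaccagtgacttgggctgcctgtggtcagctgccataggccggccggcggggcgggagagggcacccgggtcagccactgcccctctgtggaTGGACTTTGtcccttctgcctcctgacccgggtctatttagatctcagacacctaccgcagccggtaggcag
Hal (chr10:93488518-93488767, plus strand): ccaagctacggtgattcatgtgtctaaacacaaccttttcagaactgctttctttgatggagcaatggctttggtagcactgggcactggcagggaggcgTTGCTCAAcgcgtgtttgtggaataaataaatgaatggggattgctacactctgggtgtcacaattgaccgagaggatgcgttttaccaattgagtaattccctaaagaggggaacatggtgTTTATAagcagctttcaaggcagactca
The capitals in Bhmt mark CAAAGGTCA and those in Aadat the reverse strand of CAAAGTCCA, both spellings of the site bound by HNF4, a factor of liver and proximal tubule. In Hal they mark TTGCNNAA, the core of sites bound by C/EBP factors, and the reverse strand of TATAAA. The same windows were searched on both strands for 36 of the 38 genes with an entry, 43 windows in all. CAAAGTCCA lay before 2 genes (Aadat and Agxt2) and in 0.384% of 32851 windows genome-wide, and CAAAGGTCA before Bhmt and in 0.426%. GTTAAT, part of the HNF1 site, lay before Bckdhb, Haao, Hao2 and Prodh2 (6.43% of all windows), and TTGCNNAA before Aass, Dao, Hal, Hgd, Prodh2 and Qdpr (9.56%). TATAAA lay before Agxt2, Ddc, Hal and Hgd (12.4% of all windows). Hpd held none of the 5 motifs. A match describes the letters of a window and shows no binding.

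Tyrosine enzymes fell in all 5 genes in FVB at day 2 and 53 and in 3 at day 28, and in B6 in 4, 2 and none on the same days. Hpd, the hydroxyphenylpyruvate dioxygenase that makes homogentisate, had the largest mean difference of all 37 genes over the 6 comparisons. Hpd levels in FVB Nx kidneys were 6.32, 6.65, 7.73 and 8.27 at day 2, 8.52, 8.95, 9.68 and 10.34 at day 28 and 6.31, 6.45, 6.69 and 7.30 at day 53. Hpd in FVB sham kidneys stood at 10.68, 11.46, 11.68 and 12.33 at day 2, 11.35, 11.50, 11.72 and 12.54 at day 28 and 12.12, 12.23, 12.78 and 12.94 at day 53. Every FVB Nx kidney lay below every sham kidney of its day, and the Nx kidneys of day 28 were all above those of day 2 and 53. Nx minus sham for Hpd in FVB was -4.29 at day 2, -2.40 at day 28 and -5.83 at day 53 (SE 0.52, adjusted p = 5.43e-09, 0.000928 and 3.82e-12), and the day 53 value is a 56.8-fold lower level. Hpd levels in B6 Nx kidneys were 6.33, 7.05, 7.46 and 7.65 at day 2, 6.38, 8.55, 8.87 and 10.02 at day 28 and 9.30, 9.55, 9.89 and 10.26 at day 53. Hpd in B6 sham kidneys stood at 10.72, 10.92, 11.27 and 11.41 at day 2, 10.65, 10.92, 11.49 and 11.91 at day 28 and 9.59, 11.38, 11.49 and 11.99 at day 53. B6 Nx kidneys were below sham at day 2 and 28, with 1 animal at day 28 well under the other 3, and at day 53 a single low sham animal overlapped them. The B6 differences for Hpd were -3.96 at day 2, -2.79 at day 28 and -1.36 at day 53 (SE 0.52, adjusted p = 6.57e-08, 0.000128 and 0.0718). Without the arrays that carry pancreas transcripts the FVB difference at day 28 was -1.08 and did not pass (adjusted p = 0.479). With only the arrays of the comparison the B6 fall at day 28 did not pass (adjusted p = 0.0704), and without B6 sham day 53 mouse 1 the B6 difference at day 53 was -1.87 and passed (adjusted p = 0.0123).

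Fah, the hydrolase that ends the pathway in fumarate and acetoacetate, moved over a narrower range. Fah levels in FVB Nx kidneys were 11.06, 11.35, 11.45 and 11.70 at day 2, 11.83, 11.89, 11.92 and 11.97 at day 28 and 11.11, 11.19, 11.25 and 11.36 at day 53. Fah in FVB sham kidneys stood at 12.09, 12.34, 12.36 and 12.36 at day 2, 12.30, 12.32, 12.34 and 12.43 at day 28 and 12.27, 12.33, 12.37 and 12.43 at day 53. The FVB groups did not overlap on any day. Differences for Fah in FVB were -0.90 at day 2, -0.44 at day 28 and -1.12 at day 53 (SE 0.13, adjusted p = 1.63e-07, 0.0132 and 1.41e-09). Fah levels in B6 Nx kidneys were 11.03, 11.54, 11.58 and 11.59 at day 2, 11.32, 11.83, 12.06 and 12.16 at day 28 and 11.88, 12.02, 12.06 and 12.18 at day 53. Fah in B6 sham kidneys stood at 12.04, 12.10, 12.20 and 12.25 at day 2, 12.08, 12.14, 12.28 and 12.51 at day 28 and 12.05, 12.25, 12.42 and 12.43 at day 53. B6 groups were apart at day 2 only. In B6 the Fah differences were -0.71 at day 2, -0.41 at day 28 and -0.25 at day 53 (SE 0.13, adjusted p = 1.87e-05, 0.0202 and 0.2). The B6 call at day 28 was lost without Nx mouse 3 (-0.24, adjusted p = 0.214) or sham mouse 5 (-0.33, adjusted p = 0.107), and the FVB call at day 28 without the arrays that carry pancreas transcripts (adjusted p = 0.187). Between Hpd and Fah in the pathway stand Hgd, which opens the ring of homogentisate, and the isomerase Gstz1. Hgd fell by 0.83 in FVB at day 2 and at day 53 and by 0.43 in B6 at day 2, and its differences elsewhere lay between -0.25 and 0.00. A dimmer probe set of Hgd fell by 1.08 in FVB at day 28, where the one used here gave -0.13 and did not pass. Gstz1 fell in FVB on all 3 days (-0.69, -0.37 and -1.06) and passed on no day in B6 (-0.15, -0.29 and -0.07). Its FVB call at day 28 was lost on leaving out Nx mouse 7 or 8 or sham mouse 1, 2 or 3 (adjusted p = 0.0659 to 0.0958), and the B6 differences at day 28 of Hgd (-0.32) and Gstz1 (-0.38) passed without Nx mouse 9. Qdpr, which recycles the cofactor of the aromatic amino acid hydroxylases, fell by 0.47 and 0.28 in FVB at day 2 and 53 and by 0.30 in B6 at day 2.

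Glycine and betaine enzymes fell in all 7 genes in FVB at day 2 (median -1.13) and at day 53 (-1.30), and in none at day 28 (0.09). In B6, 4 fell at day 2, 1 at day 28 and none at day 53, where Bhmt2 rose. Bhmt passes a methyl group from betaine to homocysteine and so remakes methionine. Bhmt levels in FVB Nx kidneys were 8.30, 8.77, 10.11 and 10.50 at day 2, 9.80, 10.34, 10.87 and 11.56 at day 28 and 6.22, 6.57, 7.50 and 7.78 at day 53. Bhmt in FVB sham kidneys stood at 9.94, 11.16, 11.75 and 12.24 at day 2, 11.55, 11.81, 12.09 and 12.46 at day 28 and 11.57, 12.47, 12.53 and 12.58 at day 53. The sham animals themselves ranged widely at day 2, the groups overlapped at day 2 and narrowly at day 28, and at day 53 the Nx kidneys lay far below them. FVB differences for Bhmt were -1.85 at day 2, -1.34 at day 28 and -5.27 at day 53 (SE 0.55, adjusted p = 0.00459, 0.0966 and 2.01e-10), the day 53 value being a 38.5-fold lower level. Bhmt levels in B6 Nx kidneys were 5.89, 6.73, 7.49 and 7.59 at day 2, 5.94, 7.63, 7.84 and 9.40 at day 28 and 8.66, 8.94, 9.43 and 9.64 at day 53. Bhmt in B6 sham kidneys stood at 9.39, 9.58, 9.94 and 10.22 at day 2, 9.71, 10.37, 11.00 and 11.63 at day 28 and 9.54, 10.83, 10.92 and 11.47 at day 53. The B6 groups were apart at day 2 and 28, with 1 low Nx animal at day 28, and overlapped at day 53. In B6 the differences for Bhmt were -2.86 at day 2, -2.97 at day 28 and -1.52 at day 53 (SE 0.55, adjusted p = 5.29e-05, 0.000129 and 0.0575). Without the arrays that carry pancreas transcripts the FVB difference at day 2 was -1.16 and did not pass (adjusted p = 0.255). With only the arrays of each comparison Bhmt did not pass in FVB at day 2 (adjusted p = 0.0525) or in B6 at day 28 (adjusted p = 0.0616), and without B6 sham day 53 mouse 1 it passed in B6 at day 53 (-1.91, adjusted p = 0.0227). Bhmt and Hpd also varied most among sham animals, with a pooled SD over the 6 sham groups of 0.689 and 0.637, against a median of 0.137 over the members.

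Gatm acts on arginine and glycine in the first step towards creatine, and the kidney is a main site of it. Gatm levels in FVB Nx kidneys were 12.33, 12.39, 12.47 and 13.27 at day 2, 13.79, 13.94, 14.08 and 14.34 at day 28 and 11.16, 11.99, 12.28 and 12.35 at day 53. Gatm in FVB sham kidneys stood at 14.07, 14.13, 14.35 and 14.46 at day 2, 13.88, 14.16, 14.20 and 14.29 at day 28 and 14.10, 14.11, 14.15 and 14.16 at day 53. FVB Nx kidneys were low at day 2, back among sham values at day 28 and low again at day 53. Pancreas transcripts had a mean above 5 on 3 of these 4 arrays at day 2 and at day 28, and on 2 at day 53. Counts for B6 Nx arrays were the same. The highest pancreas mean, 14.92, was that of FVB Nx day 2 mouse 5, which read 13.27 in Gatm. The part of pancreas RNA in the Gatm values was not tested. The Gatm differences in FVB were -1.64 at day 2, -0.09 at day 28 and -2.19 at day 53 (SE 0.21, adjusted p = 1.47e-08, 0.856 and 1.6e-11). Gatm levels in B6 Nx kidneys were 11.71, 12.14, 12.57 and 13.15 at day 2, 13.84, 13.98, 14.10 and 14.23 at day 28 and 13.84, 13.95, 13.98 and 14.28 at day 53. Gatm in B6 sham kidneys stood at 14.19, 14.25, 14.29 and 14.51 at day 2, 14.12, 14.19, 14.34 and 14.34 at day 28 and 14.17, 14.26, 14.31 and 14.45 at day 53. B6 Nx kidneys were low at day 2 and overlapped sham on both later days. Gatm differed in B6 by -1.92 at day 2, -0.21 at day 28 and -0.28 at day 53 (SE 0.21, adjusted p = 1.09e-09, 0.554 and 0.418).

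Betaine yields dimethylglycine and sarcosine, which Dmgdh and Sardh oxidise in mitochondria. Dmgdh fell by 1.61 at day 2 and 1.70 at day 53 in FVB and by 1.19 at day 2 in B6. Sardh fell by 0.42 at day 2 and 1.30 at day 53 in FVB and passed on no day in B6. Agxt2, a mitochondrial aminotransferase of alanine and glyoxylate that also acts on dimethylarginine, fell by 1.13 and 1.07 in FVB at day 2 and 53 and by 0.75 in B6 at day 2. Its differences of 0.41 in FVB at day 28 and 0.31 and 0.40 in B6 at day 28 and 53 did not pass. Gldc, the decarboxylase of the glycine cleavage system, fell by 0.48 and 0.37 in FVB at day 2 and 53, and in B6 stood at 0.01, 0.01 and 0.36, none past the threshold. Bhmt2, which uses methylmethionine in place of betaine, fell by 0.33 and 0.88 in FVB at day 2 and 53 and rose by 0.44 in B6 at day 53 (SE 0.14, adjusted p = 0.0319), where sham mouse 1 was low at 10.88. Without that animal the rise was 0.20 and did not pass (adjusted p = 0.302), and it was also lost without Nx mouse 4 or 7 (adjusted p = 0.0856 and 0.0669), without the arrays that carry pancreas transcripts (0.162) and in a fit of just the arrays compared (0.254). The FVB fall of Bhmt2 at day 2 was lost without Nx mouse 1, 2 or 4 or sham mouse 1, 2 or 5 (adjusted p = 0.0544 to 0.132). That of Sardh was lost without Nx mouse 2 (-0.28, adjusted p = 0.136) or sham mouse 5 (adjusted p = 0.0815), and Sardh passed in B6 at day 2 without Nx mouse 3 or 9 or sham mouse 1 (-0.43 to -0.42). The FVB fall of Gldc at day 53 was lost without Nx mouse 8 or sham mouse 1 or 5 (adjusted p = 0.0508 to 0.0765), and Gldc passed in B6 at day 53 without Nx mouse 4 (0.43, adjusted p = 0.0469). Agxt2 passed in FVB at day 28 without Nx mouse 8 or sham mouse 2 (0.45 and 0.46). Without the arrays that carry pancreas transcripts neither Sardh (adjusted p = 0.152) nor Gldc (0.14) passed in FVB at day 2, and Gldc did not pass at day 53 (0.113).

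Transsulfuration carries the sulfur of homocysteine to cysteine through Cbs, which makes cystathionine, and Cth, which splits it. Cbs levels in FVB Nx kidneys were 4.85, 4.96, 5.65 and 7.01 at day 2, 5.31, 5.76, 6.18 and 6.34 at day 28 and 3.64, 3.77, 4.98 and 5.22 at day 53. Cbs in FVB sham kidneys stood at 6.64, 6.64, 6.89 and 6.98 at day 2, 6.41, 6.50, 6.79 and 7.04 at day 28 and 6.82, 6.85, 7.12 and 7.27 at day 53. The 2 lowest Cbs values were from FVB Nx kidneys at day 53, and 1 Nx kidney at day 2 was above all sham kidneys of that day. FVB differences for Cbs were -1.17 at day 2, -0.78 at day 28 and -2.61 at day 53 (SE 0.33, adjusted p = 0.00303, 0.109 and 1.64e-08). Cbs levels in B6 Nx kidneys were 6.09, 6.76, 6.85 and 6.98 at day 2, 6.51, 7.59, 7.77 and 7.78 at day 28 and 7.30, 7.38, 7.59 and 8.08 at day 53. Cbs in B6 sham kidneys stood at 7.66, 7.90, 8.03 and 8.05 at day 2, 7.75, 7.95, 8.20 and 8.41 at day 28 and 7.76, 8.11, 8.24 and 8.28 at day 53. Groups of B6 were apart at day 2 only. Cbs in B6 differed by -1.24 at day 2, -0.66 at day 28 and -0.51 at day 53 (SE 0.33, adjusted p = 0.00243, 0.171 and 0.355). A second probe set of Cbs gave -0.58 in FVB at day 2 (adjusted p = 0.202) and -1.13 in B6 at day 28 (adjusted p = 0.0334), so that both calls depend on the probe set. With only the arrays of the comparison the FVB call at day 2 was lost too (adjusted p = 0.0742). Cth levels in FVB Nx kidneys were 10.28, 10.54, 10.64 and 10.79 at day 2, 10.49, 10.65, 10.69 and 10.80 at day 28 and 9.27, 9.55, 9.57 and 9.77 at day 53. Cth in FVB sham kidneys stood at 11.07, 11.13, 11.19 and 11.48 at day 2, 11.05, 11.23, 11.25 and 11.26 at day 28 and 11.19, 11.24, 11.24 and 11.26 at day 53. FVB Nx kidneys lay below sham on each day, and furthest at day 53. The differences for Cth in FVB were -0.65 at day 2, -0.54 at day 28 and -1.69 at day 53 (SE 0.10, adjusted p = 4.9e-07, 0.000121 and 8.82e-17). Cth levels in B6 Nx kidneys were 11.98, 12.14, 12.16 and 12.40 at day 2, 12.04, 12.26, 12.27 and 12.31 at day 28 and 12.35, 12.40, 12.41 and 12.51 at day 53. Cth in B6 sham kidneys stood at 12.40, 12.42, 12.48 and 12.55 at day 2, 12.32, 12.49, 12.55 and 12.57 at day 28 and 12.19, 12.45, 12.51 and 12.55 at day 53. In B6 the groups were close to one another, touching at day 2 and overlapping at day 53. Cth differences in B6 were -0.29 at day 2, -0.26 at day 28 and -0.01 at day 53 (SE 0.10, adjusted p = 0.0139, 0.0575 and 1). The B6 call of Cth at day 2 was lost without Nx mouse 11 (-0.23, adjusted p = 0.0786), and Cth passed in B6 at day 28 without sham mouse 1 (-0.32, adjusted p = 0.0343).

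D-amino acid oxidase, Dao, is a peroxisomal enzyme of the proximal tubule that oxidises neutral D-amino acids. It fell steeply at day 2 in both strains and, of the later days, passed only in FVB at day 53. Dao levels in FVB Nx kidneys were 7.10, 7.14, 7.18 and 8.51 at day 2, 9.98, 10.25, 10.28 and 10.51 at day 28 and 9.57, 9.77, 9.96 and 9.98 at day 53. Dao in FVB sham kidneys stood at 10.28, 10.28, 10.37 and 10.38 at day 2, 10.08, 10.23, 10.32 and 10.42 at day 28 and 10.34, 10.34, 10.42 and 10.45 at day 53. At day 2 the FVB Nx kidneys were more than 1 unit below every sham kidney, and at day 28 they lay among them. Dao differences in FVB were -2.84 at day 2, -0.00 at day 28 and -0.57 at day 53 (SE 0.18, adjusted p = 1.54e-15, 1 and 0.00649). Dao levels in B6 Nx kidneys were 6.95, 7.51, 7.61 and 7.78 at day 2, 9.61, 9.98, 9.99 and 10.01 at day 28 and 10.03, 10.04, 10.11 and 10.28 at day 53. Dao in B6 sham kidneys stood at 9.90, 10.14, 10.17 and 10.19 at day 2, 10.08, 10.11, 10.22 and 10.40 at day 28 and 10.25, 10.28, 10.39 and 10.39 at day 53. B6 kidneys followed the same course at day 2, and at day 53 the groups overlapped. In B6 the Dao differences were -2.64 at day 2, -0.30 at day 28 and -0.21 at day 53 (SE 0.18, adjusted p = 1.5e-14, 0.258 and 0.5). Its relative Ddo, which oxidises D-aspartate, fell by 1.56 and 1.18 in FVB at day 2 and 53 and by 1.68 in B6 at day 2, and stood at -0.05, -0.10 and -0.44 at the other points without passing.

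Hao2 is a peroxisomal oxidase of hydroxy acids. Hao2 levels in FVB Nx kidneys were 13.55, 13.66, 13.98 and 14.02 at day 2, 14.71, 14.74, 14.93 and 14.96 at day 28 and 13.84, 14.00, 14.05 and 14.09 at day 53. Hao2 in FVB sham kidneys stood at 15.16, 15.25, 15.25 and 15.32 at day 2, 15.15, 15.24, 15.24 and 15.26 at day 28 and 15.20, 15.22, 15.28 and 15.36 at day 53. The Nx and sham kidneys of FVB were apart on all 3 days, least so at day 28. Hao2 in FVB differed by -1.45 at day 2, -0.39 at day 28 and -1.27 at day 53 (SE 0.10, adjusted p = 2.36e-14, 0.00641 and 3.56e-13). Hao2 levels in B6 Nx kidneys were 12.60, 13.13, 13.23 and 13.32 at day 2, 14.10, 14.20, 14.39 and 14.49 at day 28 and 14.54, 14.62, 14.65 and 14.66 at day 53. Hao2 in B6 sham kidneys stood at 14.78, 14.81, 14.86 and 14.92 at day 2, 14.76, 14.83, 14.91 and 15.11 at day 28 and 14.85, 14.92, 14.96 and 15.01 at day 53. B6 groups were apart on all 3 days as well. The B6 differences for Hao2 were -1.77 at day 2, -0.61 at day 28 and -0.32 at day 53 (SE 0.10, adjusted p = 1.72e-16, 3.55e-05 and 0.0281).

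Lysine breakdown showed 3 different courses. Aadat, an aminotransferase of aminoadipate that also acts on kynurenine, was lower in every comparison. Aadat levels in FVB Nx kidneys were 12.68, 13.09, 13.25 and 13.79 at day 2, 12.70, 13.28, 14.07 and 14.10 at day 28 and 10.81, 10.89, 11.65 and 12.07 at day 53. Aadat in FVB sham kidneys stood at 14.56, 14.58, 14.65 and 14.67 at day 2, 14.75, 14.76, 14.81 and 14.84 at day 28 and 14.59, 14.61, 14.76 and 14.84 at day 53. Sham kidneys kept within a narrow band, and the FVB Nx kidneys were all below it and lowest at day 53. Aadat differences in FVB were -1.41 at day 2, -1.25 at day 28 and -3.34 at day 53 (SE 0.30, adjusted p = 0.000134, 0.00305 and 6.11e-12). Aadat levels in B6 Nx kidneys were 12.75, 12.82, 13.21 and 13.53 at day 2, 12.09, 12.96, 13.69 and 13.99 at day 28 and 12.61, 12.93, 13.75 and 14.00 at day 53. Aadat in B6 sham kidneys stood at 14.48, 14.61, 14.62 and 14.72 at day 2, 14.57, 14.75, 14.86 and 14.89 at day 28 and 14.64, 14.73, 14.78 and 14.84 at day 53. B6 Nx kidneys were below sham on every day and spread over more than 1 unit at day 28 and 53. In B6 Aadat differed by -1.53 at day 2, -1.58 at day 28 and -1.43 at day 53 (SE 0.30, adjusted p = 7.33e-05, 0.000189 and 0.000857). Pipox, the peroxisomal oxidase of pipecolic acid, changed less. Pipox levels in FVB Nx kidneys were 9.56, 9.69, 9.73 and 10.13 at day 2, 10.09, 10.32, 10.35 and 10.68 at day 28 and 10.05, 10.33, 10.41 and 10.49 at day 53. Pipox in FVB sham kidneys stood at 10.49, 10.75, 10.75 and 10.79 at day 2, 10.52, 10.61, 10.64 and 10.81 at day 28 and 10.50, 10.76, 10.80 and 10.83 at day 53. Day 2 was the time of the lowest FVB Nx values. Pipox differed in FVB by -0.92 at day 2, -0.29 at day 28 and -0.41 at day 53 (SE 0.14, adjusted p = 3.35e-07, 0.156 and 0.0108). Pipox levels in B6 Nx kidneys were 9.57, 9.72, 10.06 and 10.18 at day 2, 10.30, 10.61, 10.76 and 10.81 at day 28 and 10.57, 10.75, 10.90 and 10.95 at day 53. Pipox in B6 sham kidneys stood at 10.49, 10.59, 10.80 and 10.82 at day 2, 10.65, 10.66, 10.72 and 11.05 at day 28 and 10.58, 10.83, 10.85 and 10.95 at day 53. B6 groups overlapped on both later days. The differences for Pipox in B6 were -0.79 at day 2, -0.15 at day 28 and -0.01 at day 53 (SE 0.14, adjusted p = 9.02e-06, 0.51 and 1). Without FVB Nx day 53 mouse 4 the FVB fall of Pipox at day 53 did not pass (adjusted p = 0.0649), nor did it without the arrays that carry pancreas transcripts (adjusted p = 0.0844). Aass, whose joined activities start the main mitochondrial route, fell by 0.82 and 0.54 in FVB at day 2 and 53, did not pass in B6 at day 2 (-0.17) and rose in B6 at day 53 (0.60, SE 0.13, adjusted p = 0.000647).

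Tryptophan breakdown was represented by Kynu, which cleaves kynurenine and its hydroxylated form, and Haao, which opens the ring of hydroxyanthranilate. Kynu levels in FVB Nx kidneys were 5.65, 6.46, 6.53 and 7.54 at day 2, 8.30, 8.62, 8.78 and 8.93 at day 28 and 6.43, 6.60, 7.08 and 8.05 at day 53. Kynu in FVB sham kidneys stood at 8.24, 8.53, 9.19 and 9.31 at day 2, 8.88, 8.97, 8.99 and 9.26 at day 28 and 9.23, 9.43, 9.48 and 9.66 at day 53. FVB Nx kidneys lay below sham at day 2 and 53 and reached into the sham range at day 28. Kynu differences in FVB were -2.27 at day 2, -0.37 at day 28 and -2.41 at day 53 (SE 0.34, adjusted p = 4.6e-07, 0.546 and 1.44e-07). Kynu levels in B6 Nx kidneys were 4.37, 6.19, 6.29 and 6.88 at day 2, 7.72, 7.96, 8.04 and 8.35 at day 28 and 8.11, 8.30, 8.40 and 8.54 at day 53. Kynu in B6 sham kidneys stood at 8.13, 8.23, 8.34 and 8.59 at day 2, 8.23, 8.33, 8.75 and 8.86 at day 28 and 8.07, 8.33, 8.50 and 8.68 at day 53. A drop in B6 was seen at day 2, with 1 kidney at 4.37. In B6 Kynu differed by -2.39 at day 2, -0.53 at day 28 and -0.06 at day 53 (SE 0.34, adjusted p = 3.52e-07, 0.313 and 0.986). A second probe set of Kynu gave -0.08, -0.11 and -0.01 in the 3 comparisons where the first one passed, so the fall of Kynu rests on 1 probe set. The second one had an SE of 0.06 and stood at 0.00 in B6 at day 28 and 53. Its level was not examined, so it may be unable to show a fall. Haao levels in FVB Nx kidneys were 8.52, 8.81, 9.02 and 9.13 at day 2, 9.54, 9.71, 9.75 and 9.96 at day 28 and 7.96, 8.00, 8.35 and 8.69 at day 53. Haao in FVB sham kidneys stood at 9.57, 9.75, 9.87 and 9.98 at day 2, 9.48, 9.64, 9.73 and 9.76 at day 28 and 9.72, 9.74, 9.92 and 9.93 at day 53. The FVB groups of Haao were apart at day 2 and 53 and mixed at day 28. Haao differed in FVB by -0.92 at day 2, 0.08 at day 28 and -1.58 at day 53 (SE 0.18, adjusted p = 3.35e-05, 0.843 and 1.09e-09). Haao levels in B6 Nx kidneys were 8.44, 9.17, 9.29 and 9.49 at day 2, 9.06, 9.55, 9.60 and 9.74 at day 28 and 9.41, 9.56, 9.69 and 10.00 at day 53. Haao in B6 sham kidneys stood at 9.43, 9.65, 9.65 and 9.82 at day 2, 9.48, 9.57, 9.66 and 9.87 at day 28 and 8.99, 9.44, 9.70 and 9.75 at day 53. B6 groups overlapped on all 3 days. Differences for Haao in B6 were -0.54 at day 2, -0.16 at day 28 and 0.20 at day 53 (SE 0.18, adjusted p = 0.0124, 0.619 and 0.543). The B6 call at day 2 was lost without Nx mouse 11 (-0.32, adjusted p = 0.14).

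Proline enzymes fell in all 3 genes at day 2 in both strains and at day 53 in FVB, and in none at day 28. Prodh2 oxidises hydroxyproline, an amino acid of collagen. Prodh2 levels in FVB Nx kidneys were 6.50, 6.79, 7.36 and 8.10 at day 2, 9.19, 9.47, 9.62 and 9.82 at day 28 and 7.87, 8.02, 8.17 and 8.45 at day 53. Prodh2 in FVB sham kidneys stood at 9.21, 9.33, 9.47 and 9.77 at day 2, 9.47, 9.54, 9.73 and 9.83 at day 28 and 9.62, 9.92, 10.04 and 10.07 at day 53. Its FVB Nx values at day 2 and 53 were all below sham, and at day 28 they were mixed with it. Prodh2 in FVB differed by -2.26 at day 2, -0.12 at day 28 and -1.78 at day 53 (SE 0.22, adjusted p = 6.79e-11, 0.817 and 1.2e-08). Prodh2 levels in B6 Nx kidneys were 6.84, 7.28, 7.64 and 7.65 at day 2, 8.51, 9.19, 9.45 and 9.56 at day 28 and 9.19, 9.25, 9.42 and 9.52 at day 53. Prodh2 in B6 sham kidneys stood at 8.80, 9.08, 9.22 and 9.27 at day 2, 9.05, 9.06, 9.08 and 9.51 at day 28 and 8.96, 9.19, 9.35 and 9.41 at day 53. B6 values were apart at day 2 alone. In B6 the Prodh2 differences were -1.74 at day 2, 0.00 at day 28 and 0.12 at day 53 (SE 0.22, adjusted p = 4.57e-08, 1 and 0.838). Prodh oxidises proline itself at the inner mitochondrial membrane. Prodh levels in FVB Nx kidneys were 9.80, 9.89, 10.38 and 10.71 at day 2, 11.59, 11.60, 11.65 and 11.67 at day 28 and 10.27, 10.68, 10.78 and 10.87 at day 53. Prodh in FVB sham kidneys stood at 11.82, 11.85, 11.97 and 12.02 at day 2, 11.60, 11.75, 12.01 and 12.06 at day 28 and 11.68, 11.69, 11.71 and 11.82 at day 53. Here too the FVB groups were apart at day 2 and 53. Prodh differences in FVB were -1.72 at day 2, -0.23 at day 28 and -1.07 at day 53 (SE 0.18, adjusted p = 1.47e-10, 0.43 and 2.44e-06). Prodh levels in B6 Nx kidneys were 9.85, 10.20, 10.27 and 10.41 at day 2, 10.65, 11.23, 11.43 and 11.71 at day 28 and 10.89, 11.16, 11.41 and 11.42 at day 53. Prodh in B6 sham kidneys stood at 11.20, 11.21, 11.45 and 11.51 at day 2, 11.16, 11.33, 11.80 and 11.92 at day 28 and 11.33, 11.42, 11.47 and 11.50 at day 53. In B6 they were apart at day 2. Prodh differed in B6 by -1.16 at day 2, -0.30 at day 28 and -0.21 at day 53 (SE 0.18, adjusted p = 1.14e-06, 0.26 and 0.506). Aldh4a1, which takes the products of both to glutamate or its hydroxylated form, fell by 0.99 and 0.83 in FVB at day 2 and 53 and by 0.71 in B6 at day 2. Aldh4a1 without the arrays that carry pancreas transcripts did not pass at day 2 in FVB (-0.63, adjusted p = 0.122) or B6 (-0.46, adjusted p = 0.318).

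Hal and Ddc went opposite ways in FVB. Hal, the ammonia-lyase that starts histidine breakdown, is known from liver and skin. Hal levels in FVB Nx kidneys were 5.38, 5.54, 5.70 and 6.25 at day 2, 2.20, 2.22, 2.84 and 3.62 at day 28 and 2.36, 2.47, 4.59 and 5.22 at day 53. Hal in FVB sham kidneys stood at 2.20, 2.20, 2.20 and 2.23 at day 2, 2.20, 2.20, 2.20 and 2.20 at day 28 and 2.20, 2.20, 2.20 and 2.20 at day 53. Sham kidneys read the lowest value of the table or close to it, all 4 Nx kidneys were high at day 2, 2 were raised at day 28, and at day 53 all 4 lay above sham, 2 of them only slightly. At day 2 Hal was at least 10.8-fold higher in FVB Nx kidneys (3.51, SE 0.33, limma adjusted p = 1.44e-11), and at day 53 at least 2.61-fold (1.46, adjusted p = 0.000218). Since Hal passed the filter only through FVB Nx kidneys, these p-values add no support. At day 28 the difference of 0.52 did not pass (adjusted p = 0.31), and with only the arrays of that comparison in the fit the day 53 rise did not pass either (adjusted p = 0.113). Every B6 array, Nx or sham, read 2.20 for Hal. Without FVB Nx day 53 mouse 7 or mouse 8 the strain difference of Hal at day 53 did not pass (adjusted p = 0.0572 and 0.0548). Of 12 hepatocyte markers 9 were measured, and the median over animals of their mean in FVB was 5.10 in Nx and 5.32 in sham kidneys at day 2, 5.97 and 5.42 at day 28, and 6.03 and 5.56 at day 53. The part of the higher level at day 28 and 53 in the Hal values was not tested. Of these markers Apoa1 and Ahsg were at or under the filter value on all 4 FVB Nx arrays at day 2, 28 and 53. The same held in B6 for Nx at day 28 and 53 and for sham at day 2. Low values of these markers were thus not particular to FVB Nx kidneys.

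Ddc removes the carboxyl group of aromatic amino acids and makes dopamine in the proximal tubule. Ddc levels in FVB Nx kidneys were 10.17, 10.26, 10.30 and 10.82 at day 2, 11.38, 11.40, 11.43 and 11.50 at day 28 and 10.23, 10.23, 10.25 and 10.85 at day 53. Ddc in FVB sham kidneys stood at 11.29, 11.37, 11.51 and 11.69 at day 2, 11.49, 11.66, 11.85 and 12.01 at day 28 and 11.73, 11.79, 11.81 and 11.89 at day 53. FVB Nx values were below sham at day 2 and 53 and near it at day 28. Ddc differences in FVB were -1.08 at day 2, -0.32 at day 28 and -1.41 at day 53 (SE 0.14, adjusted p = 4.2e-08, 0.125 and 9.12e-11). Ddc levels in B6 Nx kidneys were 10.81, 11.22, 11.44 and 11.46 at day 2, 11.62, 12.06, 12.19 and 12.29 at day 28 and 11.98, 12.24, 12.29 and 12.48 at day 53. Ddc in B6 sham kidneys stood at 12.05, 12.11, 12.21 and 12.26 at day 2, 12.35, 12.49, 12.56 and 12.67 at day 28 and 12.64, 12.67, 12.70 and 12.74 at day 53. In B6 the groups were apart on all 3 days. Ddc in B6 differed by -0.92 at day 2, -0.48 at day 28 and -0.44 at day 53 (SE 0.14, adjusted p = 1.58e-06, 0.0153 and 0.0309). The B6 call at day 28 was lost without Nx mouse 3 (-0.34, adjusted p = 0.133) or sham mouse 3 (adjusted p = 0.0521), and that at day 53 without Nx mouse 1 or 2 or sham mouse 1, 3 or 5 (adjusted p = 0.0508 to 0.147).

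Got1 and Glud1 handle the nitrogen that other breakdown enzymes deliver to glutamate and aspartate. Got1 is the cytosolic aspartate aminotransferase. Got1 levels in FVB Nx kidneys were 9.90, 10.05, 10.23 and 10.36 at day 2, 10.33, 10.39, 10.52 and 10.57 at day 28 and 9.60, 9.68, 9.68 and 9.97 at day 53. Got1 in FVB sham kidneys stood at 10.91, 10.91, 11.06 and 11.08 at day 2, 10.91, 10.97, 11.10 and 11.23 at day 28 and 11.07, 11.10, 11.17 and 11.32 at day 53. FVB Nx kidneys lay under all sham kidneys on each day. Got1 differences in FVB were -0.86 at day 2, -0.60 at day 28 and -1.43 at day 53 (SE 0.11, adjusted p = 7.12e-09, 6.37e-05 and 2.78e-14). Got1 levels in B6 Nx kidneys were 10.03, 10.18, 10.20 and 10.45 at day 2, 9.95, 10.29, 10.38 and 10.42 at day 28 and 10.11, 10.12, 10.27 and 10.30 at day 53. Got1 in B6 sham kidneys stood at 10.25, 10.36, 10.39 and 10.71 at day 2, 10.67, 10.68, 10.79 and 10.82 at day 28 and 10.41, 10.52, 10.61 and 10.77 at day 53. B6 groups overlapped at day 2 and were apart later. In B6 the differences for Got1 were -0.21 at day 2, -0.48 at day 28 and -0.38 at day 53 (SE 0.11, adjusted p = 0.0978, 0.000865 and 0.00962). Without B6 sham day 53 mouse 3 the B6 call at day 53 was lost (-0.32, adjusted p = 0.0569), and Got1 passed in B6 at day 2 without Nx mouse 9 (-0.29) or sham mouse 5 (-0.27). The FVB call at day 28 was lost without the arrays that carry pancreas transcripts (-0.37, adjusted p = 0.188).

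Glud1, the mitochondrial glutamate dehydrogenase that releases ammonium, ran against most of the group. Glud1 levels in FVB Nx kidneys were 13.61, 13.63, 13.73 and 13.78 at day 2, 13.75, 13.82, 13.86 and 13.92 at day 28 and 12.86, 13.02, 13.06 and 13.08 at day 53. Glud1 in FVB sham kidneys stood at 13.54, 13.56, 13.57 and 13.63 at day 2, 13.41, 13.55, 13.59 and 13.62 at day 28 and 13.33, 13.38, 13.40 and 13.46 at day 53. FVB Nx kidneys were higher than sham at day 28 and lower at day 53. The FVB differences for Glud1 were 0.11 at day 2, 0.30 at day 28 and -0.39 at day 53 (SE 0.09, adjusted p = 0.277, 0.0139 and 0.000168). Glud1 levels in B6 Nx kidneys were 13.86, 13.90, 14.04 and 14.06 at day 2, 13.37, 13.65, 13.81 and 13.84 at day 28 and 13.66, 13.71, 13.75 and 13.83 at day 53. Glud1 in B6 sham kidneys stood at 13.39, 13.42, 13.50 and 13.53 at day 2, 12.94, 13.19, 13.37 and 13.40 at day 28 and 12.73, 13.09, 13.12 and 13.13 at day 53. B6 Nx kidneys were all above sham at day 2 and 53, with 1 of them inside the sham range at day 28. Glud1 differed in B6 by 0.51 at day 2, 0.44 at day 28 and 0.72 at day 53 (SE 0.09, adjusted p = 6.9e-06, 0.000231 and 1.3e-07). The FVB rise at day 28 was lost without Nx mouse 7 (adjusted p = 0.0545) or sham mouse 3 (adjusted p = 0.0664). Neither strain passed at day 28 without the arrays that carry pancreas transcripts (0.25 in FVB and 0.20 in B6). Sham kidneys of B6 were themselves 0.34 higher in Glud1 at day 2 than on the later days (SE 0.07, adjusted p = 0.0126).

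Branched chain breakdown fell in all 8 genes in FVB at day 2 (median -1.21) and day 53 (-1.15), in 7 in B6 at day 2 (-0.76) and in 2 on B6 day 53 (-0.11). Mccc2 and Mccc1 are the subunits of the leucine enzyme methylcrotonyl-CoA carboxylase. Mccc2 levels in FVB Nx kidneys were 9.30, 9.40, 9.42 and 9.89 at day 2, 10.17, 10.30, 10.76 and 10.84 at day 28 and 9.14, 9.37, 9.38 and 9.46 at day 53. Mccc2 in FVB sham kidneys stood at 11.10, 11.19, 11.21 and 11.28 at day 2, 11.21, 11.22, 11.23 and 11.25 at day 28 and 11.10, 11.21, 11.24 and 11.24 at day 53. The FVB groups of Mccc2 were apart on every day, with the Nx kidneys of day 28 in between. Mccc2 differences in FVB were -1.69 at day 2, -0.71 at day 28 and -1.86 at day 53 (SE 0.13, adjusted p = 3.68e-13, 0.000196 and 1.88e-14). Mccc2 levels in B6 Nx kidneys were 9.07, 9.38, 9.58 and 9.85 at day 2, 9.80, 10.27, 10.33 and 10.49 at day 28 and 10.26, 10.39, 10.41 and 10.57 at day 53. Mccc2 in B6 sham kidneys stood at 10.75, 10.81, 10.87 and 10.93 at day 2, 10.89, 10.93, 10.94 and 11.19 at day 28 and 10.85, 10.92, 11.00 and 11.10 at day 53. B6 groups were also apart on every day. In B6 Mccc2 differed by -1.38 at day 2, -0.77 at day 28 and -0.56 at day 53 (SE 0.13, adjusted p = 1.16e-10, 5.67e-05 and 0.00291). Its partner Mccc1 fell by 1.27 and 1.23 in FVB at day 2 and 53 and by 0.87 and 0.32 in B6 at day 2 and 28, and it did not pass in FVB at day 28 (-0.07), where Mccc2 fell by 0.71. The B6 call of Mccc1 at day 28 was lost without Nx mouse 3 (-0.20, adjusted p = 0.24) or sham mouse 5 (-0.24, adjusted p = 0.159), and with array weights (-0.18, adjusted p = 0.089).

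Bckdhb and Bckdha form the decarboxylase of the branched chain ketoacid dehydrogenase complex, the step that commits leucine, isoleucine and valine to breakdown. Bckdhb levels in FVB Nx kidneys were 9.78, 10.05, 10.23 and 10.38 at day 2, 10.39, 10.55, 10.81 and 10.99 at day 28 and 8.91, 8.98, 9.20 and 9.37 at day 53. Bckdhb in FVB sham kidneys stood at 11.05, 11.12, 11.31 and 11.44 at day 2, 11.05, 11.24, 11.31 and 11.41 at day 28 and 11.27, 11.43, 11.64 and 11.66 at day 53. Day 53 held the lowest FVB Nx values, and no group overlapped its sham group. Bckdhb differences in FVB were -1.12 at day 2, -0.57 at day 28 and -2.38 at day 53 (SE 0.12, adjusted p = 7.79e-10, 0.00102 and 3.02e-18). Bckdhb levels in B6 Nx kidneys were 9.43, 9.61, 9.69 and 9.85 at day 2, 9.88, 9.91, 9.97 and 10.10 at day 28 and 9.88, 9.89, 10.15 and 10.24 at day 53. Bckdhb in B6 sham kidneys stood at 10.42, 10.54, 10.56 and 10.60 at day 2, 10.34, 10.53, 10.54 and 10.76 at day 28 and 10.54, 10.55, 10.63 and 10.67 at day 53. B6 Nx kidneys lay below sham on each day. Bckdhb differed in B6 by -0.88 at day 2, -0.57 at day 28 and -0.56 at day 53 (SE 0.12, adjusted p = 2.55e-07, 0.000808 and 0.0014). The FVB difference of Bckdhb at day 28 was -0.16 without the arrays that carry pancreas transcripts and did not pass (adjusted p = 0.776). Bckdha followed a different course at day 28, where it did not pass in FVB (0.02) or B6 (-0.09), after falls of 1.30 and 0.67 at day 2, and in FVB it was 1.01 lower at day 53.

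Downstream, the isovaleryl-CoA dehydrogenase Ivd of leucine breakdown fell by 1.27 and 1.11 in FVB at day 2 and 53 and by 0.70 in B6 at day 2. Pcca and Pccb, the subunits of propionyl-CoA carboxylase, fell by 1.08 and 1.15 in FVB at day 2, by 1.18 and 0.88 in FVB at day 53, and by 0.81 and 0.71 in B6 at day 2. In B6 at day 28 Pccb stood at -0.28 and passed narrowly (adjusted p = 0.0423). That call was lost without Nx mouse 3 (-0.14, adjusted p = 0.372), without sham mouse 1, 3 or 5 (adjusted p = 0.0749 to 0.134), with array weights (-0.16, adjusted p = 0.14), with quantile normalization (adjusted p = 0.05) and under 3 other settings. Hibch, a hydrolase of valine breakdown, fell by 0.32 and 0.94 in FVB at day 2 and 53 and did not pass in B6 on any day (0.01, -0.14 and 0.09). Its second probe set gave -0.09 in FVB at day 2 and did not pass (adjusted p = 0.723).

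**Figure D2:**
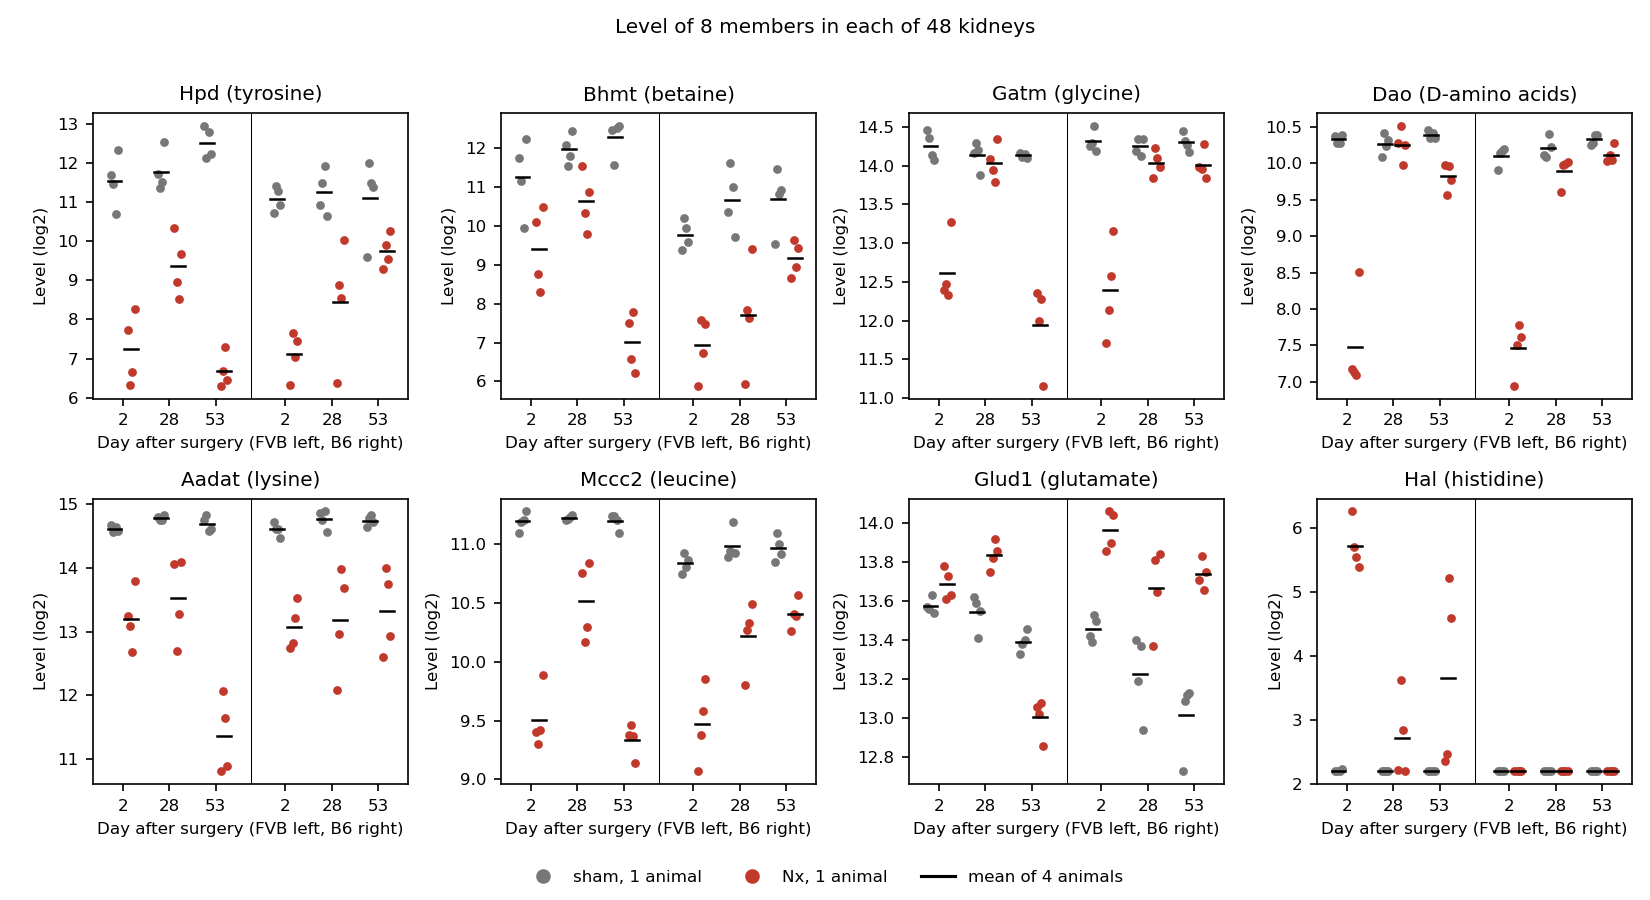
Level (log2) of 8 genes in each of the 48 kidneys, by day after surgery (x axis, FVB left and B6 right of the line). Grey points are sham and red points Nx animals, and bars are means of 4 animals, so that Aadat lies below sham in all 6 comparisons, Dao at day 2 mainly, and Hal leaves the lowest value of 2.20 in FVB Nx kidneys only.

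Side by side, the medians of the pathways ranked differently by day. In FVB at day 2 they were -1.72 for proline, -1.21 for branched chain, -1.13 for glycine and betaine, -0.92 for lysine and -0.83 for tyrosine. At day 53 in FVB, glycine and betaine stood at -1.30, branched chain at -1.15, proline at -1.07, tyrosine at -1.06 and lysine at -0.54. B6 at day 2 gave -1.16 for proline, -0.79 for lysine, -0.76 for branched chain, -0.75 for glycine and betaine and -0.43 for tyrosine. At day 28 the FVB medians were between -0.37 (tyrosine) and 0.09 (glycine and betaine). Differences between pathways were not tested, and the range within a pathway was wide, from -5.83 to -0.28 for tyrosine in FVB at day 53.

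The effect of Nx itself moved between days. From day 2 to day 28 in FVB it rose towards 0 or above in 25 genes and fell in 1, Hal, against 12.8% and 12.5% of all genes. The largest rises were those of Dao (2.84, SE 0.25, adjusted p = 1.7e-10) and Prodh2 (2.14, SE 0.32, adjusted p = 4.03e-06). Among the 11 genes that did not pass this test were Hpd (1.89, adjusted p = 0.0545), Bhmt (0.51) and Aadat (0.16). From day 28 to day 53 the effect fell in 34 genes and rose in none, against 12.6% and 13.7% of all genes, and did not pass in Dao, Pipox and Hal. Bhmt fell by 3.93 (SE 0.78, adjusted p = 0.000212), Hpd by 3.42 (SE 0.73, adjusted p = 0.000514) and Gatm by 2.10 (SE 0.29, adjusted p = 1.31e-06). Both changes use the same day 28 animals.

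In B6 the effect rose in 15 genes from day 2 to day 28 and fell in none, against 4.84% and 4.02% of all genes, led by Dao (2.34, SE 0.25, adjusted p = 4.21e-08), Kynu (1.86, SE 0.48, adjusted p = 0.0099) and Prodh2 (1.74, SE 0.32, adjusted p = 0.000243). That count was 8 without B6 Nx day 2 mouse 11. From day 28 to day 53 in B6, limma called none of the 37 genes and 0.0% of all genes, and 3 of the 37, all upward, had an unadjusted p below 0.05 (405 of all genes). Without the arrays that carry pancreas transcripts, 16 of the 37 passed this last test, with B6 Nx day 28 mouse 3 then standing alone for its group.

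The test of the strain difference in response passed in few genes at day 2, in none at day 28 and in nearly all at day 53. At day 2 the Nx effect differed in 4 genes. Aass (-0.82 in FVB against -0.17 in B6, difference -0.65, SE 0.18, adjusted p = 0.0269), Got1 (-0.86 against -0.21, difference -0.64, SE 0.15, adjusted p = 0.00713) and Bckdha (-1.30 against -0.67, difference -0.64, SE 0.16, adjusted p = 0.0141) were lower in FVB. Hal was higher (3.51, SE 0.46, adjusted p = 1.85e-06). Since Hal passed the filter only through FVB Nx kidneys, that p-value adds no support. The call of Aass was lost without FVB Nx mouse 2, FVB sham mouse 1, B6 Nx mouse 3 or 9 or B6 sham mouse 1 or 5 (adjusted p = 0.051 to 0.0828), that of Bckdha without FVB Nx mouse 2 (0.057), and that of Got1 with only the arrays of the comparison (0.0545). Among all genes 2.14% were lower and 2.27% higher at day 2. At an unadjusted limma p below 0.05 there were 17 of the 37, 15 lower and 2 higher, against 19.0% of all genes. The count of 4 became 2 without FVB Nx day 2 mouse 2, 11 without FVB Nx day 2 mouse 5 and 12 without B6 Nx day 2 mouse 11. At day 28 limma called none of the 37, and 0.0683% of all genes were lower and 0.0607% higher. At an unadjusted p below 0.05 it found 1 of the 37, against 4.51% of all genes. The day 28 result changed without the arrays that carry pancreas transcripts, a fit with 1 Nx array per strain at that day.

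At day 53 the Nx effect was lower in FVB than in B6 in 34 genes and higher in Hal, against 14.9% and 14.2% of all genes. The Hal call is again bound to the filter, which it passed only through FVB Nx kidneys. The largest differences by the probe sets used here were that of Hpd (-5.83 in FVB against -1.36 in B6, difference -4.47, SE 0.73, adjusted p = 1.41e-05), followed by Bhmt (-3.74, SE 0.78, adjusted p = 0.000342), Kynu (-2.35, SE 0.48, adjusted p = 0.000282) and Cbs (-2.10, SE 0.47, adjusted p = 0.000738). With their second probe set Kynu stood at -0.11 (adjusted p = 0.413) and Cbs at -0.65 (adjusted p = 0.43), and neither passed. Whether that Kynu probe set can show a fall was not tested. The smallest that passed was Qdpr (-0.28, SE 0.07, adjusted p = 0.00292). Glud1 went in opposite directions, falling in FVB and rising in B6 (difference -1.11, SE 0.12, adjusted p = 9.92e-09), and so did Aass (-1.15, SE 0.18, adjusted p = 5.61e-06) and Bhmt2 (-1.32, SE 0.20, adjusted p = 4.77e-06). For Bhmt2 the B6 side of this, a rise of 0.44, was 0.20 and did not pass without B6 sham day 53 mouse 1 (adjusted p = 0.302). Cth had the smallest p-value (-1.68, SE 0.14, adjusted p = 3.33e-11), with -1.69 in FVB and -0.01 in B6. Dao and Pipox did not pass, with -0.57 and -0.41 in FVB against -0.21 and -0.01 in B6. The difference of Aldh4a1 (-0.83, adjusted p = 0.0325) was lost without FVB Nx mouse 8, FVB sham mouse 1, B6 Nx mouse 1 or 7 or B6 sham mouse 1, 5 or 6 (adjusted p = 0.054 to 0.116), and that of Ddo (-0.74, adjusted p = 0.0177) without FVB Nx mouse 8 (0.0742).

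By pathway, the day 53 differences between strains had medians of -1.47 for glycine and betaine, -1.15 for lysine, -1.10 for branched chain, -0.87 for tyrosine, -0.86 for proline and -0.74 for the oxidases. In the glycine and betaine group they ran from -3.74 to -0.73. The other pathways hold 2 genes each. For transsulfuration and tryptophan, Cth stood at -1.68 and Haao at -1.78 (SE 0.25, adjusted p = 1.46e-06), beside Cbs and Kynu, whose differences rest on 1 probe set. Hal (1.46, SE 0.46, adjusted p = 0.0143), bound to the filter as above, was lost without FVB Nx mouse 7 or 8 (adjusted p = 0.0572 and 0.0548). Ddc stood at -0.97 (SE 0.20, adjusted p = 0.000341) and Got1 at -1.05 (SE 0.15, adjusted p = 1.35e-06).

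**Figure D3:**
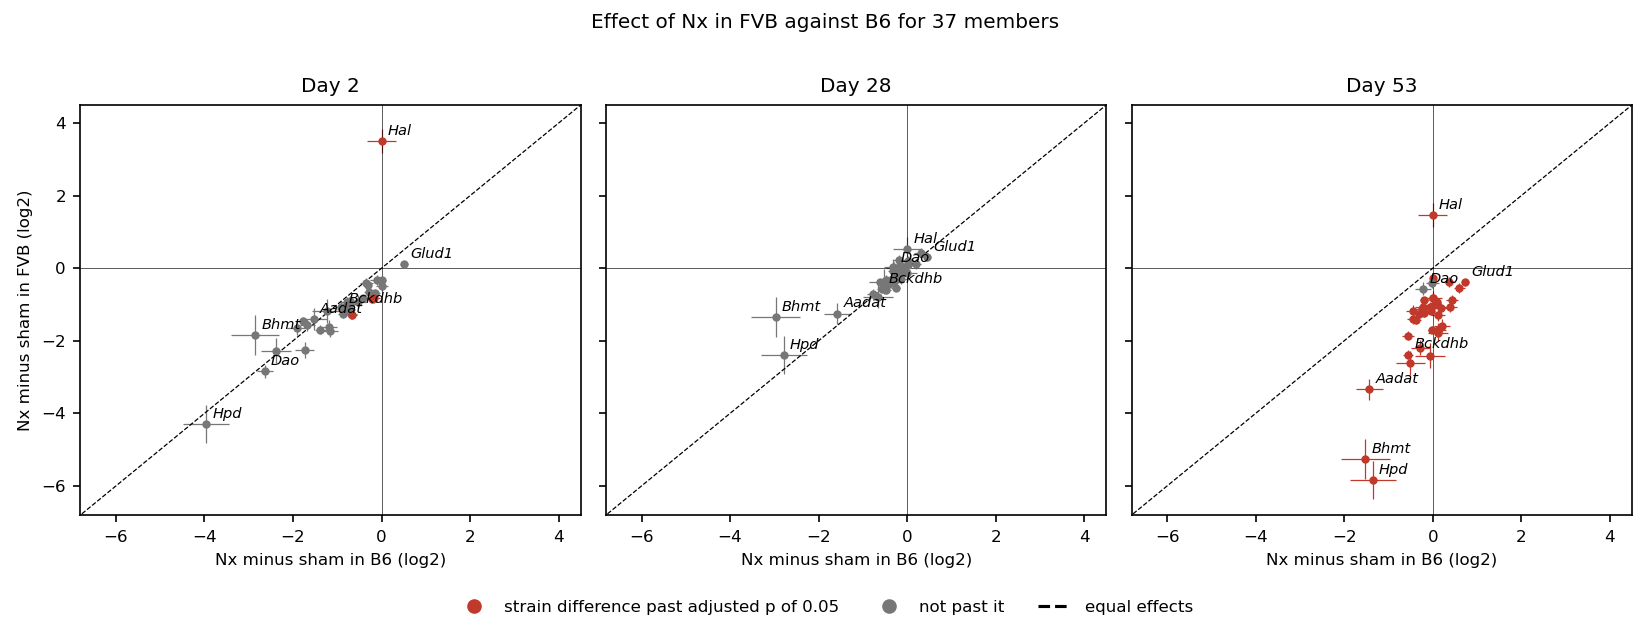
Nx minus sham (log2) in FVB (y axis) against B6 (x axis) for the 37 genes at day 2, 28 and 53, with bars of 1 SE and red points where the strain difference had an adjusted p below 0.05. The dashed line marks equal effects; 4 points are red at day 2, none at day 28 and 35 at day 53, where Hpd lies at -5.83 against -1.36 and Hal above the line at 1.46 against 0.00.

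Sham kidneys of the strains differed before any effect of Nx is considered. Over the 12 sham animals of each strain, 20 genes were higher and 6 lower in FVB than in B6, against 16.9% and 15.6% of all genes. Aldh4a1 averaged 10.31 ± 0.28 (SD, n = 12) in FVB and 7.28 ± 0.28 in B6, a difference of 3.02 (SE 0.12, adjusted p = 1.07e-22). Bhmt was 1.46 higher in FVB (SE 0.32, adjusted p = 0.000331), Dmgdh 0.83 and Bckdhb 0.77. The 6 lower genes were Cth (-1.24, SE 0.06, adjusted p = 6.19e-21), Cbs (-1.20, SE 0.19), Ddc (-0.78), Sardh (-0.69), Mccc1 (-0.61) and Ivd (-0.37), so that both transsulfuration enzymes were lower in FVB. Hpd was 0.80 higher in FVB (SE 0.30, adjusted p = 0.0373), with overlapping values. Between sham kidneys of day 2 and those of later days limma called none of the 37 genes in FVB, while 2.11% of all genes were higher and 1.47% lower. At an unadjusted p below 0.05 there were 2 of the 37, against 15.9% of all genes, and array weights gave 1 adjusted call. In B6 limma called Glud1 alone, with 0.493% of all genes higher and 0.288% lower.

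Single animals differed in how far the group of genes had moved. The mean over the 37 genes, less the sham mean of the same strain and day, was -1.42 to -0.72 in FVB Nx kidneys at day 2, -0.39 to -0.19 at day 28 and -1.63 to -1.24 at day 53. In B6 Nx kidneys it was -1.36 to -0.70 at day 2, -0.87 to -0.15 at day 28 and -0.28 to -0.06 at day 53. Sham animals lay between -0.25 and 0.18. B6 Nx day 28 mouse 3 stood apart from the other 3 of its group (-0.87 against -0.30 to -0.15), with 35 of 37 genes below the sham mean, and a mean over 13 macrophage markers of 9.73 (median of the group 7.99). FVB Nx day 2 mouse 5 was the least lowered of its group, at -0.72.

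Pancreas transcripts were found on arrays with small and with large falls. In FVB at day 53 the 2 Nx animals with a pancreas mean above 5 had member means of -1.54 and -1.24, and the 2 without had -1.63 and -1.38. In FVB at day 2 the 3 with such transcripts ranged from -1.42 to -0.72, and the 1 without stood at -1.10. At day 28 in B6 the 3 with them ranged from -0.30 to -0.15, and the 1 without was mouse 3. With all 19 arrays that carried them left out, 30 genes fell in FVB at day 2, 3 at day 28 in place of 9, and 34 at day 53. In B6, 25 fell at day 2, 24 at day 28 in place of 11, and 6 at day 53. FVB and B6 Nx at day 2 and 28 then had 1 array each, and that of B6 at day 28 was mouse 3.

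**Figure D4:**
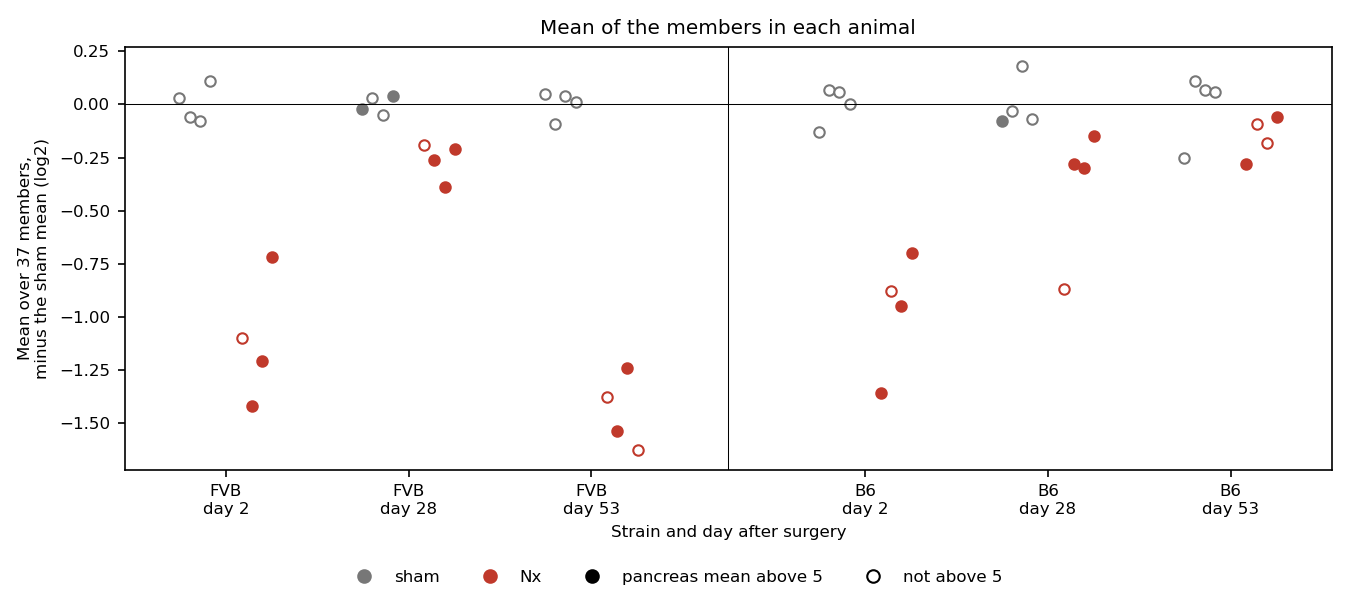
Mean over the 37 genes in each animal, less the sham mean of its strain and day (log2, y axis), for the 6 combinations of strain and day (x axis). Filled points are arrays with a pancreas mean above 5; FVB Nx kidneys lie at or below -0.72 at day 2 and -1.24 at day 53, and 1 B6 Nx kidney at day 28 lies at -0.87.

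Markers of other cell types moved in the same comparisons. Of 20 proximal tubule markers, 15 fell in FVB at day 2 (median -1.01), 3 fell and 1 rose at day 28 (-0.25) and 17 fell at day 53 (-1.07). In B6, 15 fell and 2 rose at day 2 (-0.74), 7 fell and 3 rose at day 28 (-0.28) and 5 fell and 3 rose at day 53 (-0.12). Their mean per animal was 11.49 to 11.79 in FVB Nx kidneys at day 53 against 12.72 to 12.82 in sham. Of 8 measured markers of other nephron segments, 8 fell in FVB at day 2, 7 at day 53 and 3 in B6 at day 53. All 13 macrophage markers rose in FVB at day 2 and 53, and their mean per animal at day 53 was 9.03 to 10.10 in Nx against 5.45 to 5.87 in sham kidneys. In B6 that mean was also higher in Nx than in sham kidneys on each day. It was 8.53 to 9.87 against 6.59 to 6.97 at day 2 and 7.72 to 9.73 against 5.95 to 6.34 at day 28. At day 53 in B6 it was 7.77 to 8.28 against 5.80 to 6.58. Of 8 brown fat markers 6 were measured, and their mean varied widely between animals. The median of that mean in FVB was 7.18 in Nx and 9.42 in sham kidneys at day 2, 7.70 and 7.81 at day 28, and 7.93 and 9.16 at day 53. In B6 it was 6.51 and 9.54 at day 2, 9.42 and 7.20 at day 28, and 7.66 and 5.92 at day 53. The part of all these shifts in the falls of the amino acid genes was not tested.

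Other genes of amino acid breakdown outside the 38 fell in the same comparisons. Of 61 listed, 48 were measured, and in FVB 38 fell and 2 rose at day 2 (median -0.72), 12 fell and 2 rose at day 28 (-0.13) and 39 fell and 2 rose at day 53 (-0.92). In B6, 29 fell and 2 rose at day 2 (-0.41), 19 fell and 2 rose at day 28 (-0.25), and 8 fell and 4 rose at day 53 (-0.14). The 4 that rose in B6 at day 53 were Uroc1, which follows Hal in histidine breakdown, Bcat1, Cdo1 and Sqor. At day 53 the Nx effect was lower in FVB than in B6 in 31 of the 48, and 17 did not pass.

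Among the 37 genes, 12 had a second measured probe set, which gave 72 pairs of values over the 6 comparisons. In 33 pairs both probe sets passed, all in the same direction, and in 62 the call was the same. The pairs with unlike calls belonged to Hgd, Bhmt2, Cbs, Kynu, Glud1, Mccc1 and Hibch. For Glud1 the second probe set rose in FVB at day 2 (0.25, adjusted p = 0.0198), where the first gave 0.11 and did not pass. Probe sets that can match more than 1 transcript stood for 5 of the genes (Qdpr, Bhmt2, Cbs, Dao and Hibch).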

How the data were processed

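The 48 Affymetrix mouse arrays each measured kidney RNA of 1 mouse, and groups follow the labels. The authors deposited log2 values for 45101 probe sets, used as deposited; MAS5 is named in the submitters' processing notes without a role, and how background and normalization were done is not given in the sources used here. All arrays share a lowest value of 2.20, at which 32.1% of values lie, so that differences of low genes are understated. Probe sets with 1 gene symbol were kept (the highest mean for each gene), and genes above the 40th percentile of all values (2.277) on at least 4 arrays were tested. limma 3.58.1 in R 4.3.3 fitted 12 group means over all 48 arrays with an intensity trend (36 residual degrees of freedom), and p-values of 16 contrasts were adjusted by Benjamini-Hochberg over 13174 genes. These p-values set differences of group means against the spread between mice within groups. With 1 array per mouse, that spread cannot be separated from the one between arrays. The fitting script was tested on simulated data. Arrays give no read depth; their number limits the precision.

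Values in every animal are given for the 2 genes of each pathway with the largest mean size of the Nx difference over 6 comparisons. Fold changes are given for these, for genes that moved against their pathway and for strain differences. The members, lists and tests were chosen with earlier results of these data known. Alternatives were other filters, normalizations, probe set choices, array weights, a replicate block, only the arrays of a comparison, no arrays with pancreas transcripts, and leaving out each array. Same-numbered mice of Nx and sham groups correlated between -0.251 and 0.378 in their deviations, so the numbers were not taken as pairs. Figures were drawn with matplotlib 3.10.9. Promoter sequences are RefSeq's.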

Additional observations from a re-analysis of the deposited data

Results flagged for a closer look

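Among 240 groups of 4 animals checked (20 genes in 12 groups), 15 had 1 animal set apart from the other 3 by Dixon's test of the gap against the range, and chance gives this in about 1 of 20 groups. B6 Nx day 28 mouse 3 was low in Cbs (6.51, others 7.59 to 7.78) and Dao (9.61, others 9.98 to 10.01). FVB Nx day 2 mouse 5 was high in Gatm (13.27, others 12.33 to 12.47) and Dao (8.51, others 7.10 to 7.18). B6 sham day 28 mouse 5 was high in Pipox (11.05, others 10.65 to 10.72), Prodh2 (9.51, others 9.05 to 9.08) and Mccc2 (11.19, others 10.89 to 10.94). FVB sham day 2 mouse 2 was low in Fah (12.09, others 12.34 to 12.36) and Pipox (10.49, others 10.75 to 10.79). Each of 6 further values concerned 1 gene. Fah was 11.03 in B6 Nx day 2 mouse 11, and Bhmt was 11.57 in FVB sham day 53 mouse 3. Cth was 11.05 in FVB sham day 28 mouse 1, and Ddc was 10.85 in FVB Nx day 53 mouse 7. Glud1 was 12.73 in B6 sham day 53 mouse 1, and Hal was 2.23 in FVB sham day 2 mouse 5, where the other 3 stood at 2.20.

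The Nx effect differed between strains by limma's test of the difference (FVB minus B6) in 4 genes at day 2: Aass (-0.65), Got1 (-0.64), Bckdha (-0.64) and Hal (3.51). Of all 13174 genes 581 differed at that day. Hal passed the filter only through FVB Nx kidneys, so its calls on either day add no support. At day 53 the Nx effect differed in 35 of the 37 and in 3839 of all genes. Among tyrosine enzymes the differences were -4.47 for Hpd, -0.99 for Gstz1, -0.87 for Fah, -0.83 for Hgd and -0.28 for Qdpr. For glycine and betaine they were -3.74 for Bhmt, -1.91 for Gatm, -1.81 for Dmgdh, -1.47 for Agxt2, -1.41 for Sardh, -1.32 for Bhmt2 and -0.73 for Gldc. Cbs differed by -2.10, Cth by -1.68, Hao2 by -0.95 and Ddo by -0.74. Aadat differed by -1.92, Aass by -1.15, Kynu by -2.35 and Haao by -1.78. The proline enzymes gave -1.90 for Prodh2, -0.86 for Prodh and -0.83 for Aldh4a1. Hal stood at 1.46, Ddc at -0.97, Glud1 at -1.11 and Got1 at -1.05. Branched chain values were -1.83 for Bckdhb, -1.30 for Ivd, -1.30 for Mccc2, -1.16 for Pcca, -1.04 for Bckdha, -1.04 for Mccc1, -1.03 for Hibch and -0.69 for Pccb.

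The Nx effect also differed between days. From day 2 to day 28 in FVB it changed in 26 genes (3324 of all 13174), with Hal at -2.99, Dao at 2.84 and Prodh2 at 2.14. The Hal call is again bound to the filter. From day 28 to day 53 in FVB the Nx effect changed in 34 genes (3462 of all), with Bhmt at -3.93, Hpd at -3.42 and Gatm at -2.10. From day 2 to day 28 in B6 it changed in 15 genes (1167 of all), with Dao at 2.34, Kynu at 1.86 and Prodh2 at 1.74.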

How the results depend on the processing

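In the 6 comparisons of Nx with sham and the 3 strain differences, no gene reversed a call under the alternatives run; day changes and sham comparisons were rerun as counts. The counts of called genes among the 37, for Nx against sham those of falls, are given where they moved by more than 1.5 times. Without the 19 arrays that carry pancreas transcripts, 29 arrays remained and FVB and B6 Nx at day 2 and 28 had 1 array each, assumed to vary like the other groups; 3 genes were then called in FVB at day 28, 24 in B6 at day 28, 9 for the strain difference at day 28, 5 for the change from day 2 to 28 in B6, 16 for that from day 28 to 53, and 1 and 2 for sham day 2 against later days in FVB and B6. With only the arrays of the comparison, 4 were called in B6 at day 28 and 7 for the B6 change from day 2 to 28. Array weights gave 12 falls and 5 rises in B6 at day 53, against 6 falls and 3 rises without weights. They also gave 8 calls for the strain difference at day 2, and 1 and 2 for the sham days in FVB and B6. With the mouse number as a replicate block (correlation 0.1264), 7 genes were called for the strain difference at day 2, and no other count moved this far; the labels' numbers showed no pairing.

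Leaving out 1 array at a time gave 33 to 35 falls in FVB at day 2, 8 to 9 at day 28 and 35 to 36 at day 53, and 26 to 30, 7 to 13 and 3 to 7 in B6 on the same days. The strain difference ranged from 2 to 12 at day 2 and from 32 to 35 at day 53, the FVB changes from 24 to 28 and from 32 to 35, the B6 change from day 2 to 28 from 8 to 20, sham strains from 25 to 26, and sham days in B6 from 0 to 1 (0 without B6 sham day 2 mouse 4 or 5). Leaving out 1 array at a time ended 61 gene calls and added 29 over those 9 comparisons. With only the arrays of the comparison, the 1 call between B6 sham days was lower in place of higher. Over the 9, leaving out the arrays with pancreas transcripts ended 22 calls and added 22, and fitting a comparison's arrays alone ended 18 and added 9. Groups of 4 and the shared lowest value limit what low genes such as Hal can show.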

Other observations

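Hpd and Bhmt, of tyrosine and betaine breakdown, varied together among sham animals, as Hpd did with several other genes. Their deviations from the group means over 24 sham kidneys had a Pearson r of 0.879 and a Spearman rho of 0.865 (two-sided permutation p = 3e-05 for each, Benjamini-Hochberg adjusted 0.00105 and 0.000875 over 35 relations of Hpd with the other genes). Without the 2 animals farthest from the median of Hpd, r was 0.833, and without FVB sham day 28 mouse 4, the array with liver transcripts, 0.88. The relation was not particular to Bhmt. Hpd also varied with Gstz1 (r 0.815), Prodh2 (0.758), Dmgdh (0.736), Cth (0.71) and Hao2 (0.643), among others. Their adjusted permutation p for Pearson r was 0.00222, 0.00122, 0.0256, 0.0224 and 0.0077. Bckdhb (-0.004), Bckdha (-0.006), Ddo (-0.34) and Gatm (-0.358) had negative values that did not pass.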
